A study of Canis lupus familiaris with 26 samples.

Results

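Corpora lutea (CL) of dogs given the COX2 inhibitor firocoxib were compared between day 10 and day 5 after ovulation. All firocoxib-treated libraries given for these days were taken, 4 from day 5 (numbered 1, 2, 4 and 5) and 3 from day 10 (numbered 1, 4 and 5), which made 7 of the 26 libraries of the series, and every gene of the count tables entered. Per its methods the study had removed libraries that stood apart in expression, from the treated and the control group of day 10 among others, so the spread on day 10 is that of the libraries kept. Crossbred bitches whose ages differed were given 10 mg/kg firocoxib by mouth each day, beginning at ovulation (day 0), and their ovaries were removed on the last day of dosing, so that each dog gave tissue for a single day and the step from day 5 to day 10 was one between different dogs. The control dogs, 4 on day 5 and 3 on day 10, were given a placebo according to the treatment label, while the design text calls them untreated, and they enter below only as the same step of time without the drug. The CL was cut free of the tissue around it and sequenced whole after poly-A selection, so fewer cells of a type and less RNA per cell cannot be told apart in any value that follows.

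The CL forms from the granulosa and theca cells of the ovulated follicle, is invaded by vessels, fibroblasts and macrophages, and makes progesterone from cholesterol. Its lutein cells take cholesterol from lipoproteins or synthesize it, and the matrix laid down during the first days is reorganized as the gland matures. COX2, the product of PTGS2, makes the precursor of the prostaglandins, and PGE2 made from it by PTGES acts on the receptors PTGER2 and PTGER4, which are regarded as luteotropic in the early canine CL. The question put to the samples was how the young CL develops when prostaglandin synthesis is withdrawn.

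The 7 treated libraries held between 14604330 and 21960531 counted reads. Only 4345 of the 19856 genes could be given a symbol, because the identifiers were paired with names in the study's 2 lists of differentially expressed genes alone, one of them a contrast of mature with early control CL and the other of treated with control CL on each day. Members from the second list were thus chosen on these treated samples and the controls, and their counts are not independent evidence of a direction. No treated sample but every control sample took part in the choice of members from the first list. That choice was for a difference between mature and early control CL, so these members too are a set preselected for a change with time. These members are counted separately for the matrix, contractile, cholesterol synthesis and cell cycle lists only. Both treated libraries numbered 1 stood apart. On day 5, number 1 correlated at 0.824 to 0.885 with the other libraries of its group (Pearson's r of log2 CPM across genes), against 0.920 to 0.955 among those, and on day 10 at 0.849 to 0.874 against 0.971, and the deviations of both from their group means correlated at 0.674. PTGS2 itself was 13.0 and 11.9 CPM in the libraries numbered 1 and 78.8 to 155 CPM in the other 5. Library 4 of day 10 gave 32.3% of its reads to its 10 most abundant genes, against 12.7% to 20.0% in the other 6. Receptors of luteal cells were present in all 7 libraries (FSHR at 518 to 2015 CPM, LHCGR at 9.35 to 35.4 CPM). STAR, CYP11A1, HSD3B2 and SCARB1 were not paired with an identifier and were not analysed here.

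No gene passed a P below 0.01 together with a false discovery rate (FDR) below 0.1 in edgeR's quasi-likelihood test, whose smallest FDR was 0.99983 over 13613 genes. At an unadjusted P below 0.05, 604 genes stood out (4.44% of those tested), 165 of them higher on day 10 (1.21%) and 439 lower (3.22%). Among the 4225 tested genes with a symbol, 2.56% were higher and 5.85% lower at that level, and these shares are the background for the gene lists below. The groups did not overlap, all samples of one day lying above all of the other, for 277 higher genes (2.03%) and 367 lower genes (2.7%), and among genes with a symbol for 2.82% and 3.69%. The count of 604 rested on single libraries, since it was 269 without library 5 of day 10, 311 without library 4 of day 10, 380 without library 2 of day 5, 1231 without library 1 of day 10 and 1913 without both libraries numbered 1. DESeq2, the tool the study used, passed 44 genes at the same thresholds (0.323%), 5 higher (0.0367%) and 39 lower (0.286%), and limma voom passed 0, with 506 genes at an unadjusted P below 0.05. Of the genes tested, 471 averaged 10 reads or more on day 5 alone and 218 on day 10 alone and so entered through the day on which they were higher. Among the genes described below these were ACTA1, CCL13, CD5L, CENPA, CLDN11, LRRN4 and SMIM1 for day 5 and FASLG, OPALIN and PAK5 for day 10. Since the edgeR test gave no call, the direction of each gene below is a description. Fold changes are log2 ratios of day 10 over day 5, with a standard error derived from the edgeR test after the ± sign. Every gene named had an edgeR FDR of at least 0.99983 in this comparison, and levels are reads scaled to CPM with TMM factors.

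**Figure D1:**
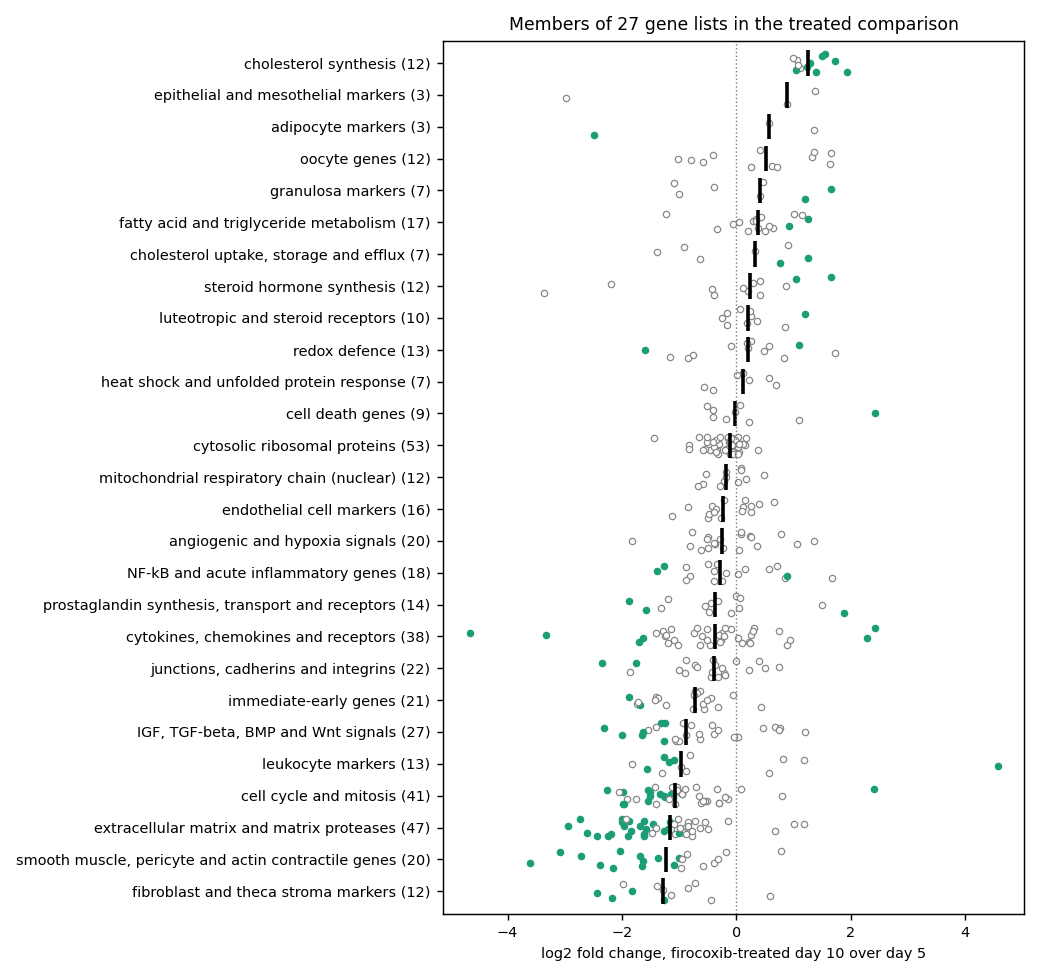
The log2 fold change of treated day 10 over day 5 (horizontal axis) is plotted for each tested member of 27 gene lists, whose number stands in brackets. Filled points have an unadjusted P below 0.05 in edgeR's test, open points do not, and the black bar is the list's median, which runs from -1.27 for fibroblast and theca stroma markers to 1.26 for cholesterol synthesis.

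Genes of the extracellular matrix had lower means on day 10 almost throughout. The list of matrix and matrix protease genes held 71 names, of which 47 were paired with an identifier, and all 47 passed the filter. Of these, 44 had a lower mean, 23 were lower at an unadjusted P below 0.05 and 0 were higher at that level. Among all tested genes with a symbol, 5.85% were lower at that level. The groups did not overlap, with day 10 lower, for 17 members, against 3.69% of all tested genes with a symbol. The median fold change was -1.16, against 0.01 over all genes tested. Without library 5 of day 10 the count of 23 became 15, and without both libraries numbered 1 it was 21. Of the 36 members named by the control-only contrast, 18 were lower at that level. COL6A2, a chain of the microfibrillar collagen VI, had the smallest P of all genes with a symbol. Its level was 286, 124, 152 and 119 CPM on day 5 and 34.8, 24.1 and 22.1 CPM on day 10, and the fold change was -2.62 ± 0.45 (DESeq2 FDR = 0.000427). The lowest library of day 5, number 5, lay far above the highest of day 10, number 1.

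The 4 fibrillar collagens were all lower at an unadjusted P below 0.05, with fold changes from -2.44 to -1.27. COL1A1, the main chain of collagen I, was at 6429, 4975, 6048 and 2699 CPM on day 5 and 661, 1222 and 815 CPM on day 10, a fold change of -2.44 ± 0.45 (DESeq2 FDR = 0.00134). For COL5A1, which sets fibril diameter, the libraries gave 429, 285, 371 and 176 CPM on day 5 and 75.6, 91.1 and 63.2 CPM on day 10 (-1.998 ± 0.41). Collagen III, encoded by COL3A1, was 6245, 4774, 6977 and 3380.0 CPM on day 5 and 1585, 2604 and 2266 CPM on day 10 (-1.27 ± 0.40). In these 3 genes the days were separate, and library 5 was the lowest of day 5. Of the 5 other collagens, 4 were lower at that level and all 5 had a lower mean.

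FN1, the fibronectin that links cells to collagen, was 830.2, 2129, 848 and 1179.6 CPM on day 5 and 292, 223 and 406 CPM on day 10, a fold change of -1.99 ± 0.48, with library 2 the highest of day 5 and no overlap between days. All 10 glycoproteins and elastic fibre genes had a lower mean on day 10, 5 of them at an unadjusted P below 0.05, and the median was -1.64. The same held for all 4 basement membrane genes (2 at that level), all 5 genes of collagen processing and cross-linking (3) and all 4 genes of the plasminogen system (2). Of the 8 metalloproteases and inhibitor, TIMP1 included, 7 had a lower mean and 1 was lower at that level, with a median of -0.92, against -0.81 for the basement membrane genes. Among 7 other proteoglycans 5 had a lower and 2 a higher mean. Summed over the 47 members with a symbol, matrix transcripts came to 62115, 43319, 43633 and 31719 CPM on day 5 and to 27897, 22489 and 18546 CPM on day 10, so that the summed level was separate too.

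Smooth muscle and actin contractile genes also had lower means on day 10. Of 36 names 20 were paired with an identifier and tested. On day 10, 12 of these were lower at an unadjusted P below 0.05 and 0 higher, against 5.85% lower among all tested genes with a symbol. The groups did not overlap, with day 10 lower, for 8 members, against 3.69% of all tested genes with a symbol. The median fold change was -1.23. Leaving out single libraries gave 8 to 12 at that level, and leaving out both numbered 1 gave 13. Of the 13 members from the control-only contrast, 7 were lower at that level. The 3 actins of muscle in the list, ACTA1, ACTA2 and ACTG2, were all lower at that level, with fold changes from -3.61 to -2.16. TAGLN, the actin-binding transgelin of smooth muscle, was at 578, 926, 825 and 212 CPM on day 5 and 139, 147 and 71.7 CPM on day 10 (-2.38 ± 0.56, DESeq2 FDR = 0.0379). FLNA, the actin cross-linking filamin A, was at 1099, 714, 1023 and 463 CPM on day 5 and 344, 212 and 193 CPM on day 10 (-1.69 ± 0.43). The muscle intermediate filament gene DES was at 203, 100.5, 119 and 161 CPM on day 5 and 62.9, 44.2 and 29.3 CPM on day 10 (-1.65 ± 0.42). None of the 3 overlapped between days. CNN1, a calponin restricted largely to smooth muscle, was 48.3, 65.6, 142 and 8.84 CPM on day 5 and 12.5, 5.64 and 4.98 CPM on day 10 (-3.08 ± 0.84, DESeq2 FDR = 0.0379), and here library 5 of day 5 lay among the day 10 values while the other 3 were above them.

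ACTA1, the skeletal muscle actin, was low on both days, at 1.57, 1.34, 2.91 and 1.37 CPM on day 5 and 0.122, 0.256 and 0.0465 CPM on day 10, with 1 to 68 reads per library and a fold change of -3.61 ± 0.83. The pericyte markers MCAM and RGS5 and the transcription factor SRF had fold changes from -0.59 to -0.19, none at an unadjusted P below 0.05. RGS5 was at 35.4, 98.6, 115 and 245 CPM on day 5 and 61.5, 144 and 84.8 CPM on day 10, with the days fully mixed. Among the defining smooth muscle markers MYH11, the smooth muscle myosin heavy chain, was 164, 180.3, 942 and 44.6 CPM on day 5 and 81.2, 88.4 and 70.2 CPM on day 10, a spread in which library 4 of day 5 was far above the next (-2.03 ± 0.88). The summed level of the contractile list was 5172, 5769.6, 7944 and 2932 CPM on day 5 and 2376, 1987 and 1722 CPM on day 10. In controls the same sum lay between 1711 and 2302 CPM on day 5 and between 1580 and 2047 CPM on day 10. All 4 treated libraries of day 5 thus lay above every other library of these days. Of the 20 members summed, 13 had a symbol from the control-only contrast. The others were chosen by contrasts of treated with control CL, so this separation from controls is not independent evidence. Markers of muscle and vessel wall are themselves in the list, and the part of remaining muscle or vessel wall in these values was not tested.

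**Figure D2:**
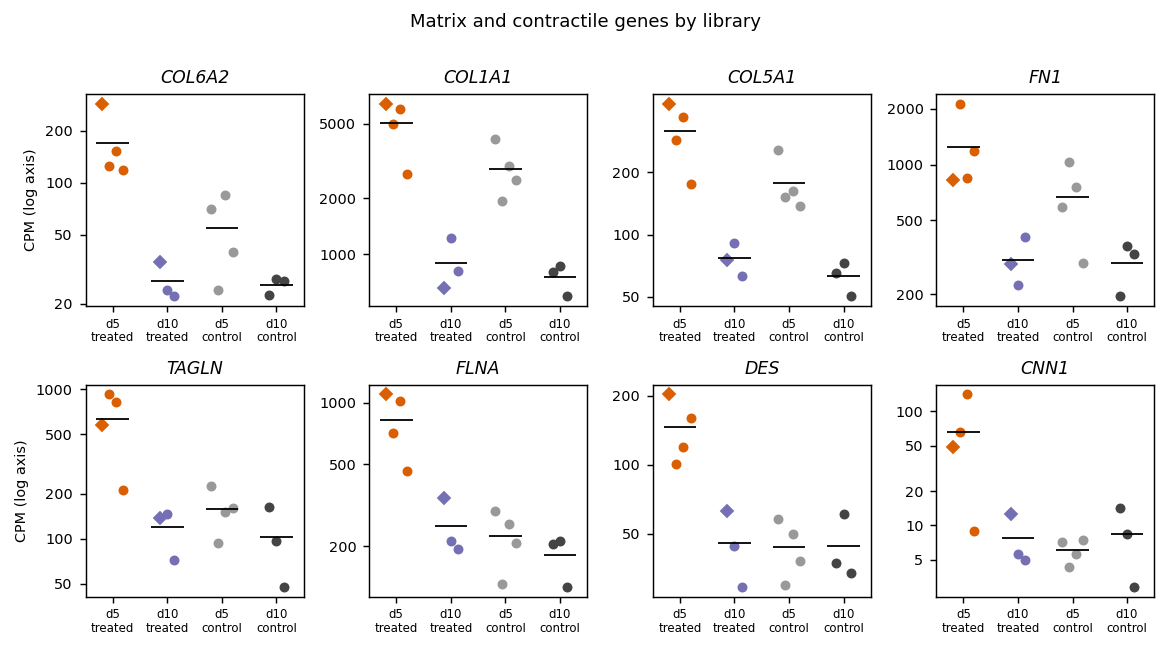
Levels in CPM (log axis) of 4 matrix genes (upper row) and 4 contractile genes (lower row) in each library of the 4 groups, with the group mean as a bar and the treated libraries numbered 1 as diamonds. In COL6A2, COL1A1, COL5A1, FN1, TAGLN, FLNA and DES all 4 treated day 5 libraries lie above all 3 treated day 10 libraries, and in CNN1 1 of them does not.

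Single genes of immune cells differed between days in both directions. CD5L and SLC11A1 stood in none of the gene lists and were named for their small P. CD5L averaged 310 reads on day 5 and 6.33 on day 10, and CCL13 217 and 8. Both were thus tested only because of their level on day 5. CD5L, a scavenger protein secreted by tissue macrophages, gave the lowest DESeq2 FDR among genes with a symbol. It was 7.41, 39.0, 3.38 and 16.8 CPM on day 5 and 0.55, 0.321 and 0.233 CPM on day 10 (-5.48 ± 0.98, DESeq2 FDR = 2.91e-07), with all day 5 libraries above 3 CPM and all day 10 libraries below 1 CPM. SLC11A1, the phagosomal metal transporter of macrophages, was 16.6, 38.6, 5.26 and 13.1 CPM on day 5 and 2.87, 1.22 and 2.33 CPM on day 10 (-3.08 ± 0.72, DESeq2 FDR = 0.0118), again without overlap. CCL13, a monocyte-attracting chemokine, was 21.0, 27.02, 1.07 and 1.25 CPM on day 5 and 0.428, 0.833 and 0.186 CPM on day 10 (-4.66 ± 1.32, DESeq2 FDR = 0.0118), and libraries 1 and 2 of day 5 were far above libraries 4 and 5, which lay just above the day 10 range.

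Of 13 tested leukocyte markers, 9 had a lower mean on day 10, 4 at an unadjusted P below 0.05 (SPI1, AIF1, TYROBP and CD86), and 1 was higher at that level, with a median of -0.96. The number lower was 0 without library 5 of day 10, 1 without library 4 of day 10 and 1 without library 2 of day 5, and 6 without both libraries numbered 1. AIF1, an actin-bundling protein of macrophages, was 35.4, 52.1, 23.0 and 30.6 CPM on day 5 and 15.0, 18.3 and 15.2 CPM on day 10 (-1.09 ± 0.41), without overlap. SPI1, the transcription factor of the myeloid lineage, was 38.4, 25.8, 9.53 and 14.5 CPM on day 5 and 11.3, 4.87 and 5.86 CPM on day 10 (-1.55 ± 0.56), with overlap. The summed level of the leukocyte list was 534.5, 466.5, 269.9 and 316.5 CPM on day 5 and 284.0, 183.5 and 220.7 CPM on day 10, so the summed levels overlapped. The one higher member was GZMB, the granzyme of cytotoxic lymphocytes, at 1.35, 0.514, 0.897 and 0.057 CPM on day 5 and 3.299, 1.99 and 42.9 CPM on day 10 (4.58 ± 1.19). Library 5 of day 10 was far above the others, and all 3 day 10 libraries exceeded all of day 5. DESeq2 gave no adjusted P for GZMB.

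FASLG, the Fas ligand of cytotoxic cells, was 0.0713, 0.36, 0.598 and 0.399 CPM on day 5 and 1.83, 1.92 and 2.09 CPM on day 10 (2.42 ± 0.72). CCL5, a chemokine of activated T cells, was 2.57, 1.64, 2.44 and 0.285 CPM on day 5 and 5.44, 4.10 and 14.8 CPM on day 10 (2.28 ± 0.75). Both were separate between days at low levels, and FASLG averaged 7.25 reads on day 5, so that it was tested only because of its level on day 10. FAS, the receptor of FASLG, was 13.5, 12.9, 18.2 and 5.53 CPM on day 5 and 15.3, 4.94 and 5.96 CPM on day 10, which overlapped (-0.51 ± 0.56). IDO1, the interferon-responsive enzyme of tryptophan breakdown, was 1.497, 36.5, 7.65 and 38.1 CPM on day 5 and 0.489, 3.33 and 2.28 CPM on day 10 (-3.33 ± 1.11, DESeq2 FDR = 0.0908), where library 1 of day 5 lay within the day 10 range. Over all 38 tested cytokines, chemokines and receptors, 2 were higher and 4 lower at an unadjusted P below 0.05, with a median of -0.38, and the number lower ranged from 2 to 6 with single libraries left out.

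Among 18 NF-kB and acute inflammatory genes, 1 was higher and 2 lower at that level. PTX3, a pentraxin of the cumulus matrix and of inflammation, was 176, 141, 92.1 and 182 CPM on day 5 and 37.3, 71.4 and 55.7 CPM on day 10 (-1.39 ± 0.41), without overlap. The complement component C3 had a fold change of -1.26 ± 0.56 and the pattern receptor TLR2 one of 0.88 ± 0.39, both with overlap. ICAM1, an adhesion molecule induced through NF-kB, had a fold change of -0.89 ± 0.48.

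Genes of cholesterol synthesis had higher means on day 10. Of 28 names 12 were paired with an identifier. All 12 were tested and had a higher mean, with fold changes from 0.99 to 1.93 and a median of 1.26. At an unadjusted P below 0.05, 8 were higher, against 2.56% of all tested genes with a symbol. The groups did not overlap for 6, against 2.82% of all tested genes with a symbol. All 12 carried a symbol through the control-only contrast of mature with early CL, and so were preselected for a change with time in controls. Members without a symbol were not measured, so the 12 do not stand for the whole list. ACAT2, the thiolase at the head of the pathway, was 63.2, 59.9, 94.8 and 67.4 CPM on day 5 and 215, 209 and 130.3 CPM on day 10 (1.40 ± 0.36). SQLE, the squalene epoxidase, was 123, 129.9, 358 and 119.7 CPM on day 5 and 725, 657 and 395 CPM on day 10 (1.72 ± 0.49). FDFT1, the squalene synthase, was 182, 119.7, 374 and 109.6 CPM on day 5 and 795, 518 and 381 CPM on day 10 (1.55 ± 0.50). In all 3, library 4 was the highest of day 5 and still below every library of day 10.

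INSIG1, the sterol-sensing brake on SREBP processing, was 94.3, 123, 389 and 77.1 CPM on day 5 and 541, 822 and 543 CPM on day 10 (1.93 ± 0.58), without overlap. Other members, in the order of their P, were NSDHL (1.28), HSD17B7 (1.05), FDPS (1.23), TM7SF2 (1.49), CYP51A1 (1.12), DHCR7 (1.08) and SC5D (0.99), of which the first 4 had an unadjusted P below 0.05. Without library 2 of day 5 the number of members at that level was 5, and without both libraries numbered 1 it was 9.

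Genes that bring cholesterol in or supply acyl chains had smaller median fold changes, 0.33 and 0.37. STARD4, a soluble sterol carrier, was 11.97, 21.6, 32.7 and 21.2 CPM on day 5 and 43.8, 65.2 and 43.8 CPM on day 10 (1.25 ± 0.43), separate between days. Of 7 genes of cholesterol uptake, storage and efflux 2 were higher at an unadjusted P below 0.05, STARD4 among them, and 0 were lower. ABCA1, the cholesterol exporter, had a fold change of -1.39 ± 0.82 and NR1H3, the oxysterol receptor LXR alpha, one of -0.92 ± 0.62, both with overlap.

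Of 17 genes of fatty acid and triglyceride metabolism, 14 had a higher mean on day 10 and 2 were higher at an unadjusted P below 0.05, ACLY and SCD. Their summed level was 2909 to 4282 CPM on day 5 and 5277 to 7140 CPM on day 10, without overlap. In controls the sum was 3576 to 4568 CPM on day 5 and 3154.5 to 4061 CPM on day 10. As 13 of the 17 had a symbol from the control-only contrast and the others from contrasts of treated with control CL, the sums are not independent evidence. ACLY, which makes cytosolic acetyl-CoA for both sterols and fatty acids, was 463, 353, 771 and 540.2 CPM on day 5 and 1307, 1177 and 1235 CPM on day 10 (1.25 ± 0.37). SCD, the stearoyl-CoA desaturase, was 494, 759.6, 1033 and 894 CPM on day 5 and 1485, 1378 and 1583 CPM on day 10 (0.93 ± 0.37). In both genes library 4 was the highest of day 5 and lay below all 3 libraries of day 10, which were close to each other.

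**Figure D3:**
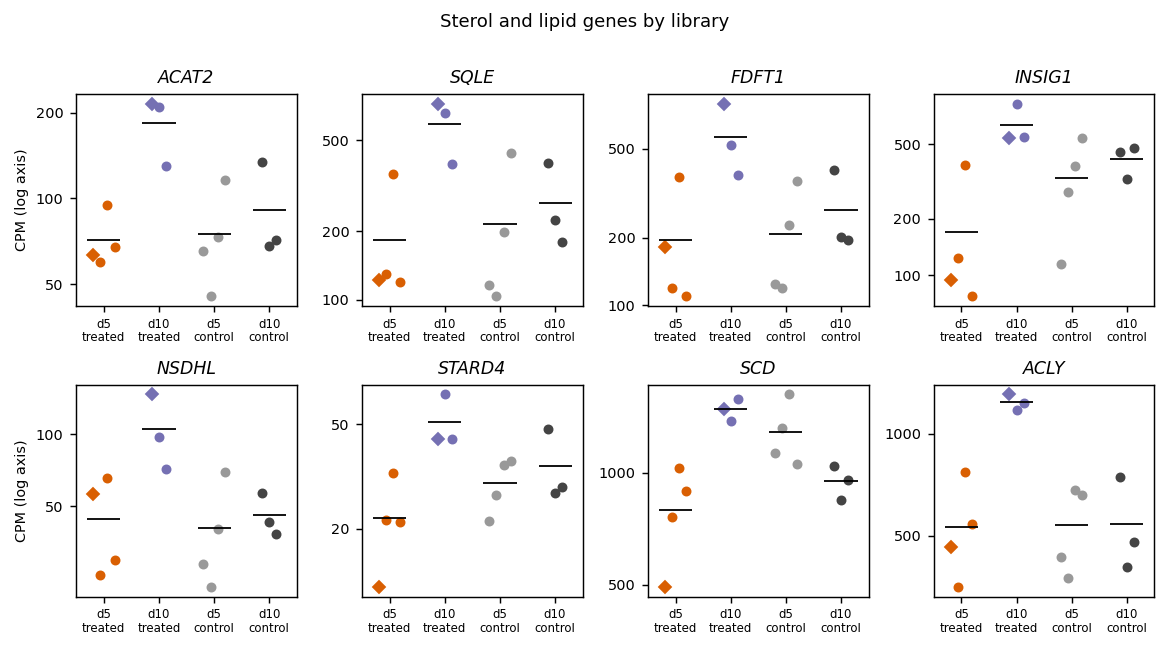
Levels in CPM (log axis) of 8 genes of sterol and lipid synthesis and transport in each library of the 4 groups, with the group mean as a bar and the treated libraries numbered 1 as diamonds. In all 8 genes the treated day 10 libraries lie above all treated day 5 libraries, and for SCD the control mean is lower on day 10 than on day 5.

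Few steroidogenic enzymes and hormone receptors had an unadjusted P below 0.05. CYP19A1, the aromatase that forms estrogens, was 67.8, 171, 341 and 77.1 CPM on day 5 and 474, 713 and 337 CPM on day 10 (1.66 ± 0.59), with overlap only of library 4 of day 5 and library 5 of day 10. HSD17B7, a dehydrogenase of both sterol and estrogen synthesis, was 22.3, 19.4, 29.6 and 17.4 CPM on day 5 and 61.0, 36.4 and 38.1 CPM on day 10 (1.05 ± 0.37), without overlap. They were the 2 of 12 steroid synthesis genes higher at an unadjusted P below 0.05, with 0 lower and a list median of 0.25. HSD17B1 was 20.4, 2.67, 0.727 and 0.342 CPM on day 5 and 0.489, 2.18 and 1.02 CPM on day 10, and its fold change of -2.19 ± 1.29 was 0.0097 without library 1 of day 5.

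FSHR, the follicle-stimulating hormone receptor retained from granulosa cells, was 631, 552, 518 and 746 CPM on day 5 and 675, 1382 and 2015 CPM on day 10 (1.20 ± 0.42), where library 1 of day 10 lay among the day 5 values. LHCGR, the luteinizing hormone receptor, was 12.3, 16.2, 14.2 and 10.49 CPM on day 5 and 9.35, 35.4 and 24.8 CPM on day 10 (0.85 ± 0.49), again with library 1 of day 10 below all the others. PRLR, the receptor of the luteotropic hormone prolactin, was 89.7, 201, 107 and 255 CPM on day 5 and 120.2, 236 and 257 CPM on day 10 (0.36 ± 0.48), with the days mixed. Without both libraries numbered 1 the fold changes were 1.53 for FSHR and 1.18 for LHCGR. FSHR was the only one of 10 tested receptors of luteotropic and steroid hormones at an unadjusted P below 0.05 in all 7 libraries.

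In the prostaglandin pathway, the target of the drug, the step from day 5 to day 10 was seen in few genes. PTGS2 was 13.0, 155, 79.5 and 109.8 CPM on day 5 and 11.9, 153 and 78.8 CPM on day 10, and the fold change was -0.10 ± 0.88. The libraries of each day were spread far more widely than the days differed, and transcript level does not measure the inhibition of the enzyme. PTGES, the PGE2 synthase, was 56.9, 45.3, 45.1 and 85.4 CPM on day 5 and 64.3, 39.7 and 34.4 CPM on day 10 (-0.31 ± 0.40). PTGER4 was 6.20, 23.8, 6.97 and 12.5 CPM on day 5 and 3.24, 13.2 and 8.38 CPM on day 10 (-0.54 ± 0.65) and PTGER2 0.855, 5.55, 0.769 and 1.20 CPM on day 5 and 0.611, 0.898 and 1.16 CPM on day 10 (-1.20 ± 0.86). None of these 4 separated the days, and 6 of the 7 synthesis genes in the list had an unadjusted P above 0.05.

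The exception among the synthases was TBXAS1, which makes thromboxane, at 38.0, 27.9, 9.36 and 20.4 CPM on day 5 and 5.99, 9.36 and 7.91 CPM on day 10 (-1.57 ± 0.52), where library 4 had the same level on both days to 3 digits. PTGIR, the prostacyclin receptor, was 3.28, 2.62, 5.13 and 2.05 CPM on day 5 and 1.16, 1.09 and 0.372 CPM on day 10 (-1.88 ± 0.66), without overlap. PTGFR, the receptor of luteolytic PGF2 alpha, was 101, 191, 369 and 218 CPM on day 5 and 281, 999.9 and 1067 CPM on day 10 (1.88 ± 0.57), where library 1 was the lowest on both days. HPGD, which inactivates prostaglandins, was 0.641, 2.06, 4.87 and 1.20 CPM on day 5 and 0.367, 10.8 and 6.98 CPM on day 10 (1.504 ± 0.98), with overlap. In all, 1 of 14 genes was higher and 2 were lower at an unadjusted P below 0.05.

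Cell cycle genes had lower means on day 10, but the count at the nominal level depended on single libraries. Of 41 tested members, 38 had a lower mean, and the median was -1.08. At an unadjusted P below 0.05, 13 were lower and 1 higher, against 5.85% and 2.56% of all tested genes with a symbol. The groups did not overlap, with day 10 lower, for 7 members, against 3.69% of all tested genes with a symbol. Of the 35 members named by the control-only contrast, 13 were lower at the nominal level. CENPA, the centromeric histone, was 0.998, 2.72, 0.94 and 2.57 CPM on day 5 and 0.367, 0.256 and 0.465 CPM on day 10 (-2.26 ± 0.74). MCM2, a subunit of the replicative helicase, was 35.4, 26.9, 13.8 and 25.4 CPM on day 5 and 13.3, 9.62 and 10.9 CPM on day 10 (-1.14 ± 0.42). CDC25B, a phosphatase that starts mitosis, was 16.0, 12.7, 16.2 and 11.3 CPM on day 5 and 7.45, 2.95 and 7.03 CPM on day 10 (-1.24 ± 0.46). The days were separate in these 3. PLK1, the mitotic polo-like kinase, was 14.8, 18.5, 7.18 and 18.7 CPM on day 5 and 7.21, 2.37 and 5.35 CPM on day 10 (-1.55 ± 0.54), with library 4 of day 5 and library 1 of day 10 touching.

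By role, 15 of 16 genes of mitosis and cytokinesis, 8 of 9 of replication licensing, all 7 cyclins and kinases and all 3 of nucleotide supply had a lower mean. The higher member at an unadjusted P below 0.05 was NUF2, of the kinetochore, at 9.05, 52.4, 13.7 and 26.1 CPM on day 5 and 6.05, 261 and 121 CPM on day 10 (2.40 ± 0.99), with library 1 of day 10 the lowest of all 7. The number lower at that level was 1 without library 4 of day 10, 2 without library 5 of day 5, 4 without library 2 of day 5, 8 without library 5 of day 10 and 20 without both libraries numbered 1. Summed over the list, the treated libraries gave 1278, 1309, 899.4 and 1393 CPM on day 5 and 1272, 852.0 and 772.9 CPM on day 10, with library 1 of day 10 within the day 5 range.

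Signals of the IGF, TGF-beta, BMP and Wnt families were lower for 21 of 27 tested genes, 7 of them at an unadjusted P below 0.05, with 0 higher at that level and a median of -0.88. The number lower at that level was 2 without library 4 of day 10 and 3 without library 5 of day 10. IGFBP2, a binding protein of insulin-like growth factors, was 63.1, 18.6, 20.2 and 16.8 CPM on day 5 and 6.78, 4.36 and 6.10 CPM on day 10 (-2.32 ± 0.57, DESeq2 FDR = 0.0459). ACVR1B, a type I activin receptor, was 44.8, 47.2, 20.3 and 43.7 CPM on day 5 and 17.7, 12.1 and 18.5 CPM on day 10 (-1.24 ± 0.43). Neither overlapped between days. TGFB3, a transforming growth factor, was 19.5, 19.4, 32.6 and 5.64 CPM on day 5 and 7.45, 6.28 and 4.61 CPM on day 10 (-1.62 ± 0.58), with library 5 of day 5 inside the day 10 range. The Wnt receptor FZD1 had a fold change of -1.26 ± 0.46 without overlap.

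Immediate-early genes had a lower mean on day 10 in 20 of 21 genes, but only IER2 and JUND reached an unadjusted P below 0.05, and no gene of the list separated the days. Without library 4 or library 5 of day 10 the number at that level was 0. JUND was 32.1, 14.5, 41.7 and 7.64 CPM on day 5 and 11.1, 6.15 and 4.65 CPM on day 10 (-1.69 ± 0.63), with library 5 of day 5 as low as the day 10 libraries. Among 22 junction, cadherin and integrin genes 2 were lower at that level, CLDN11 (-2.35 ± 0.78), a tight junction protein, and ITGB2 (-1.75 ± 0.61), the beta subunit of leukocyte integrins.

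Smaller lists held single members at that level. Of 13 redox genes 1 was higher, GSTM3, a glutathione transferase (1.09 ± 0.44), and 1 lower, GCLC, which starts glutathione synthesis (-1.60 ± 0.70). Of 3 adipocyte markers PLIN4, a lipid droplet protein, was lower (-2.48 ± 0.83), while 2 had a higher mean and the median was 0.57. Of 9 cell death genes FASLG was higher, a gene tested only through day 10, and the list median was -0.02. Among 7 granulosa markers CYP19A1 and FSHR were higher at that level, while 3 of the 7 had a lower mean and the median was 0.42. The summed granulosa level overlapped between days, at 1711 to 3102 CPM on day 5 and 2318 to 3219 CPM on day 10. Of 12 fibroblast and theca stroma markers 4 were lower, with a median of -1.27, and the number was 2 without library 5 of day 10. Among the 4 were COL1A1, already counted with the matrix genes, MFAP4, a microfibril glycoprotein (-2.18 ± 0.75), and GSN, the actin-severing gelsolin (-1.82 ± 0.78).

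For several groups no member reached an unadjusted P below 0.05. These were the 16 endothelial markers (median -0.23), the 20 angiogenic and hypoxia signals (-0.26), the 53 cytosolic ribosomal proteins (-0.11), the 12 respiratory chain subunits (-0.19), the 7 heat shock genes (0.12), the 12 oocyte genes (0.52) and the 3 epithelial genes. The lists held 34, 46, 79, 76, 28, 24 and 17 names in the same order, so each group was measured only in part. PECAM1, the adhesion molecule of endothelium, was 100.3, 213, 309 and 366 CPM on day 5 and 230.3, 120.5 and 171 CPM on day 10 (-0.49 ± 0.49), and CDH5, the endothelial cadherin, had a fold change of -0.43 ± 0.46. Oocyte transcripts split the libraries across the days. Summed over the list's genes with a symbol they were 129.4, 19.3, 5.81 and 8.84 CPM on day 5 and 6.60, 86.7 and 63.7 CPM on day 10, so that library 1 was the highest of day 5 and the lowest of day 10. BMP15, a growth factor of the oocyte, was 15.7, 5.24, 0.214 and 0.684 CPM on day 5 and 0, 25.9 and 12.1 CPM on day 10. Without both libraries numbered 1, all 12 were higher on day 10 at an unadjusted P below 0.05, in a fit with 1913 genes at that level. These libraries were the highest sum of day 5 and the lowest of day 10. Leaving them out, a choice made after seeing the data, sets the days apart by itself, so no conclusion is drawn from that fit. In controls the oocyte sum ranged from 6.00 to 143.3 CPM on day 5 and from 11.3 to 154.9 CPM on day 10, and the part of follicles beside the CL in these values was not tested.

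**Figure D4:**
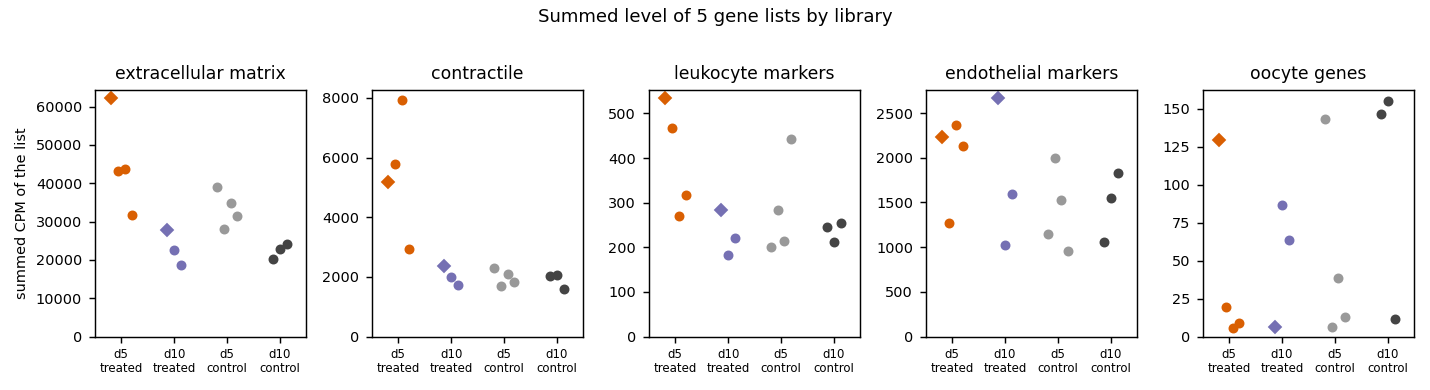
Summed level in CPM (linear axis from 0) of the members of 5 gene lists in each library of the 4 groups, with the treated libraries numbered 1 as diamonds. The matrix and contractile sums of the treated day 5 libraries lie above those of treated day 10, the leukocyte and endothelial sums overlap, and the oocyte sum of library 1 is the highest of treated day 5 and the lowest of treated day 10.

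Outside the lists, the genes with the smallest P among those whose groups did not overlap were of mixed function. Lower on day 10 were RCN3, a calcium-binding protein of the endoplasmic reticulum (-1.92 ± 0.42), TUBB6, a beta-tubulin (-1.99 ± 0.46), and SMIM1, a small membrane protein (-3.01 ± 0.67). TUBB6 was 45.8, 57.5, 31.3 and 69.6 CPM on day 5 and 18.8, 10.2 and 8.98 CPM on day 10, and SMIM1 was at or below 3.56 CPM in every library. Higher on day 10 were PRKCB, protein kinase C beta, at 15.0, 10.7, 41.4 and 3.93 CPM on day 5 and 123, 78.1 and 122 CPM on day 10 (2.63 ± 0.68, DESeq2 FDR = 0.0459), and SAXO2, a microtubule-associated protein, at 8.55, 5.19, 14.9 and 10.4 CPM on day 5 and 43.7, 24.8 and 75.3 CPM on day 10 (2.33 ± 0.51, DESeq2 FDR = 0.0256). In both, library 4 was the highest of day 5 and the lowest of day 10. DRD3, a dopamine receptor, was 1.21, 0.257, 1.07 and 0 CPM on day 5 and 1.59, 10.8 and 18.1 CPM on day 10 (4.07 ± 1.13), with library 1 of day 10 barely above day 5. MBOAT2, a lysophospholipid acyltransferase (1.56 ± 0.45), PAK5, a p21-activated kinase (2.69 ± 0.76), and OPALIN, which had 0 reads in 3 of 4 day 5 libraries and at most 1.72 CPM on day 10, completed the 10 higher genes with the smallest P, of which GZMB, ACAT2, SQLE and ACLY were given above.

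The same step was next set beside that of the control dogs, which share no sample with the treated ones. In controls 1 of 13538 genes passed (0.00739%), HERC6, with 144 by DESeq2 (1.06%), and 959 had an unadjusted P below 0.05 (7.08%), with 3.8% of genes with a symbol higher and 5.35% lower. For the difference between the steps, tested as an interaction over the 14 libraries, 0 of 13815 genes passed in edgeR and 0 in DESeq2, with 242 (1.75%) and 343 genes at an unadjusted P below 0.05. Among genes with a symbol 0.866% had a higher and 2.01% a lower treated step at that level in edgeR. Without library 1 of treated day 10 the first of these counts was 1235, and without both treated libraries numbered 1 it was 1169. No gene was thus shown to differ between treated and control CL in this step, and each difference below, the treated minus the control log2 fold change, is given with its standard error.

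In the contractile list, many members differed between the steps at the nominal level. Its control median was -0.03, with 0 of 19 tested genes lower and 1 higher at an unadjusted P below 0.05. An interaction P below 0.05 was found for 10 of its 20 genes. Of these 20, 13 had a symbol from the control-only contrast. The others were named by contrasts of treated with control CL, which on days 5 and 10 use the libraries of this difference. The count of 10 is therefore not independent evidence, and DES and CNN1 were named for their small interaction P. DES was 43.9 ± 12.4 CPM on day 5 (SD, n = 4) and 44.0 ± 14.9 CPM on day 10 (SD, n = 3) in controls, a fold change of 0.00 against -1.65 in treated CL (difference -1.69 ± 0.50). CNN1 was 6.14 ± 1.43 CPM on day 5 (SD, n = 4) and 8.48 ± 5.61 CPM on day 10 (SD, n = 3) in controls (difference -3.57 ± 0.99). In both genes the control means of the days lay near the treated day 10 mean, and the treated day 5 mean stood above both.

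Matrix genes had lower means on day 10 in controls as well, in samples on which part of the symbols had been chosen. In controls 40 of 47 genes had a lower mean, 19 at an unadjusted P below 0.05, the median was -0.47, and 5 genes had an interaction P below 0.05. COL1A1 was 2880.1 ± 942 CPM on day 5 (SD, n = 4) and 752 ± 140.4 CPM on day 10 (SD, n = 3) in controls, a fold change of -1.94 against -2.44 in treated CL (difference -0.54 ± 0.51). COL3A1 gave -1.22 and -1.27 (difference -0.09 ± 0.44), and IGFBP2 -2.07 and -2.32 (difference -0.30 ± 0.67). For COL6A2 the control step was -1.09, and the difference was -1.56 ± 0.59.

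For cholesterol synthesis the control median was 0.34, with 0 of 12 genes at an unadjusted P below 0.05, and 2 had an interaction P below 0.05, ACAT2 among them (1.09 ± 0.50). SCD, higher in treated CL on day 10, had a lower mean on day 10 in controls. Its control level was 1284 ± 254 CPM on day 5 (SD, n = 4) and 948 ± 97.1 CPM on day 10 (SD, n = 3), with a difference of 1.34 ± 0.40. The control step of SCD was itself not at the nominal level. Cell cycle genes had a control median of -0.10 with 2 of 41 lower at an unadjusted P below 0.05, and 7 had an interaction P below 0.05, among them CENPA (-2.29 ± 0.76) and PLK1 (-1.56 ± 0.61).

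**Figure D5:**
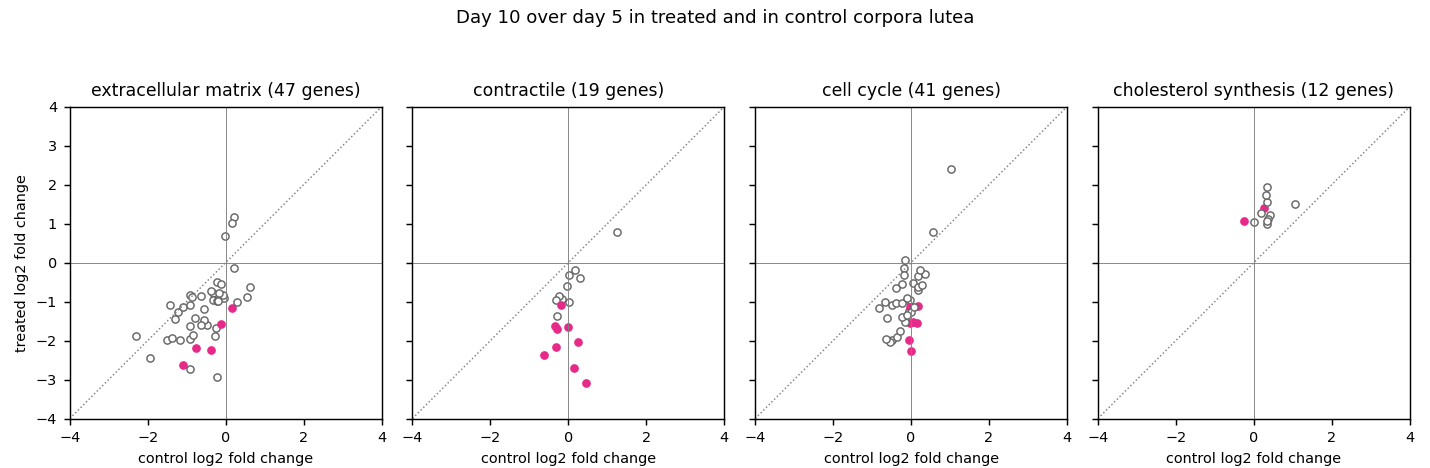
For the members of 4 gene lists, the log2 fold change of day 10 over day 5 in treated CL (vertical axis) is plotted against that in control CL (horizontal axis); filled points have an unadjusted interaction P below 0.05 and the dotted line marks equal change. Most contractile genes lie near 0 in controls and below 0 in treated CL, matrix genes lie below 0 on both axes for most members, and all 12 cholesterol synthesis genes lie above the line.

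Among the genes with the smallest interaction P were HYDIN and CLEC2D, not given above. HYDIN, a protein of motile cilia, was 0.499, 1.03, 0.983 and 0.855 CPM on day 5 and 1.41, 1.99 and 2.65 CPM on day 10 in treated CL, separate between days, and 4.62 ± 2.81 CPM on day 5 (SD, n = 4) and 2.10 ± 0.13 CPM on day 10 (SD, n = 3) in controls (difference 2.39 ± 0.72). CLEC2D, a ligand of a natural killer cell receptor, had a difference of 2.71 ± 0.91, and SMIM1 one of -3.23 ± 0.93. FASLG (2.74 ± 0.92) and CD5L (-4.05 ± 1.21) were the other immune genes among them. HYDIN, SMIM1 and FASLG were at or below 5 CPM in the mean of every group, so few reads stand behind them.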

How the data were processed

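RNA of whole canine CL was sequenced in 26 samples, of which the 7 treated and 7 control samples of days 5 and 10 were used here. Per the labels the reads were aligned with STAR and assigned to genes with featureCounts on CanFam3.1, versions not given in the sources used here, and the authors deposited raw counts per gene and sample.

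Groups came from the sample labels. A gene entered if either group compared averaged 10 reads or more. It was then tested with the quasi-likelihood test of edgeR 4.0.16 in R 4.3.3 (TMM factors), calling genes with P under 0.01 and a Benjamini-Hochberg FDR under 0.1. The procedure was run on simulated data, in which all libraries shared the same means, changed genes aside, and the same dispersion. The treated libraries differed more widely, so that run does not show how the test performs on them. DESeq2 1.42.0 and limma voom 3.58.1, other scaling, filters and sample sets were the alternatives. CPM used TMM factors over all 26 samples. Standard errors were derived from the edgeR test, as the absolute log2 fold change divided by the square root of its F statistic. Depth of 14604330 to 21960531 reads in the treated libraries leaves genes under 1 CPM with few reads.

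Gene symbols came from the study's lists of differentially expressed genes, which gave 4345 unique names. Columns of fold changes and P values in those lists were not used. The comparison, the 27 gene lists and the rules were chosen with earlier results of these data known. Named were, in each direction, the 10 non-overlapping genes with the smallest P, the up to 4 members of each list with the smallest P, genes fixed by name, and the 5 genes with the smallest interaction P in each direction. ACTA2, ACTG2, CD86, CYP51A1, DHCR7, FDPS, MCAM, MYH11, NSDHL, NUF2, RGS5, SC5D, SRF, TIMP1 and TM7SF2 were named after their values were seen. No coordinates or sequences are given, because the genome build of the counts was not used here. Some genes are not reported here.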

Additional observations from a re-analysis of the deposited data

Results flagged for a closer look

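In the 4 treated libraries of day 5, 10 of 87 sets of values tested held a sample far from the other 3, by Dixon's test of the gap over the group's range. Chance flags about 1 in 20 such sets if values are normally distributed, which was not checked for these untransformed CPM. The sets also share the same 4 libraries, so they are not independent. Groups of 3 samples were not tested.

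In library 1 of day 5, IGFBP2 was the highest of its group with a gap of 0.925 of the range, HSD17B1 with 0.884 and the summed oocyte genes with 0.891. Library 2 was the highest for PTGER2, with a gap of 0.91. Library 4 was the highest for SQLE at 0.957, INSIG1 at 0.853, ACTA1 at 0.852 and MYH11 at 0.849, and the lowest for ACVR1B at 0.872. The summed prostaglandin list stood apart in 1 library with a gap of 0.877 of the range, the sums being 12847, 2746, 3984 and 2922 CPM in libraries 1, 2, 4 and 5. No gene had a called difference between the treated and the control step.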

How the results depend on the processing

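For treated CL, 0 genes passed in edgeR, and 0 passed with limma voom, RLE factors, no filter, filterByExpr, an FDR below 0.05 alone, the replicate block, without both libraries numbered 1 and with each library left out. DESeq2 passed 44, and the fit of all 26 samples passed 1, CD5L. Genes at an unadjusted P below 0.05 (604) numbered 1228 in the fit of all 26 samples, 1913 without both libraries numbered 1 (chosen after seeing the data) and 269 to 1231 with single libraries left out. For controls 0 genes passed at an FDR below 0.05 alone and in the fit of all samples, 144 in DESeq2 and 0 to 3 with single libraries left out, and 420 in the fit of all samples and 620 to 1278 with single libraries left out were at the nominal level. For the difference, 0 genes passed in every alternative, and 154 to 1235 with single libraries left out and 1169 without both numbered 1 were at the nominal level. The cause was not tested.

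With the sample number as a replicate block, 1535 treated genes, and 907 for the difference, were at the nominal level and 77 control genes passed. The deviations of same-numbered treated libraries correlated at 0.674, 0.0657 and 0.359 for numbers 1, 4 and 5, and the control ones at -0.0537 and -0.0329, and the labels do not say what the number marks. As not every pair was above 0.1, the numbers were not taken to pair the dogs. Libraries 1, 4 and 5 of day 5 each correlated best with their own number, whereas libraries 4 and 5 of day 10 correlated best with library 2 of day 5 (0.470 and 0.501).

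Of the 121 named genes, 9 had a log2 fold change that turned direction in some alternative, and none of these was called. Main values and the range with single libraries left out were -0.10 and -0.95 to 0.42 for PTGS2, -0.40 and -0.72 to 0.049 for CASP10, -2.19 and -2.90 to 0.0097 for HSD17B1, -0.41 and -0.71 to 0.21 for HSPB8, -0.54 and -1.06 to 0.00079 for PTGER4, -0.31 and -0.59 to 0.0063 for PTGES, 1.73 and -0.12 to 2.66 for GPX3, 0.89 and -0.0066 to 1.97 for EPCAM, and -2.98 and -3.78 to -0.42 for LRRN4. PTGS2 was 0.31 and 0.13 without libraries 2 and 5 of day 5, 0.15 with the block and 0.056 without both numbered 1. With the block CASP10 was 0.33 and LRRN4 0.081, and without library 2 of day 5 LRRN4 was -0.42, and without both numbered 1 HSD17B1 was 0.39 and HSPB8 0.36.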
